A study of Mus musculus with 19 samples.

Results

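Apolipoproteins and cholesterol transport were examined through 9 genes: Apoe, Apoc1, Clu, Apod, Abca1, Abca7, Abcg1, Soat1 and Lrp1. They were found by matching the Ensembl identifiers of the count files to these symbols in GENCODE release M21, and they are 9 of the 48709 genes counted. All 9 passed the filter on low counts that left 19297 genes for testing.

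RNA from microdissected CA1, a subfield of the hippocampus, was sequenced from 19 mice that were 7 months old, 1 library per animal. WT control (n = 6) were wild-type littermates and APP control (n = 6) were APPPS1-21 mice, and both received control oligonucleotides. APP anti-miR-mix (n = 7), called treated mice here, were APPPS1-21 mice injected with a mixture of 3 inhibitors, against miR-181a-5p, against miR-146a-5p and against miR-148a-3p. All animals of the 3 groups were injected with lipid nanoparticles in the dorsal hippocampus, and no uninjected group was sequenced here. In the labels the wild-type titles carry both the name of the mixture and the word control, and the reading that these mice had control oligonucleotides follows the study's description. APPPS1-21 mice express mutant human APP and mutant human presenilin 1 under Thy1 regulatory sequence, that is, in neurons, and deposit amyloid in the brain. The sex of each sequenced animal is not given in the labels.

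Lipids move between brain cells on lipoprotein particles that are made within the brain. Astrocytes load cholesterol onto apolipoprotein E and clusterin through ATP-binding cassette (ABC) transporters, endocytic receptors take the particles up, and cholesterol that is not used is esterified for storage or hydroxylated for export. APOE, CLU and ABCA7 are risk genes for Alzheimer's disease in humans, and microglia that surround amyloid plaques raise Apoe expression.

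The sequences of the injected inhibitors and of the microRNAs they pair with are shown because they define the treatment whose effect on these genes was measured. The mature microRNAs (RefSeq, GRCm38.p6) are given from 5′ to 3′, with the seed, bases 2 to 8, in capitals, and each of the 3 has a different seed.
mmu-miR-181a-5p: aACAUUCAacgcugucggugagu
mmu-miR-146a-5p: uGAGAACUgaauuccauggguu
mmu-miR-148a-3p: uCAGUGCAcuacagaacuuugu
They are encoded at chr1:137966468-137966490 and chr2:38852741-38852763 on the plus strand (miR-181a-5p), and on the minus strand at chr11:43374435-43374456 (miR-146a-5p) and chr6:51269829-51269850 (miR-148a-3p).

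The inhibitors, read from the study's list of oligonucleotides, are given from 5′ to 3′ with the bases that pair with the seed in capitals, and the control oligonucleotide has no such stretch.
inhibitor of miR-181a-5p: actcaccgacagcgtTGAATG
inhibitor of miR-146a-5p: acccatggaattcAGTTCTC
inhibitor of miR-148a-3p: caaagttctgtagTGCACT
negative control for inhibitor: taacacgtctatacgccca
The inhibitor of miR-146a-5p covers all 7 seed bases, and the other two inhibitors cover 6.

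The 3′ untranslated regions of the members were searched on the transcript strand for the 7-base match to each seed (TGAATGT for miR-181a-5p, AGTTCTC for miR-146a-5p and TGCACTG for miR-148a-3p). Only Abca1 and Soat1 held any in the longest annotated 3′ untranslated region of each gene. Abca1 held 2 matches to miR-148a-3p, at chr4:53033881-53033902 and chr4:53030972-53030993 (GRCm38, minus strand). Each is shown with flanking bases, and the capitals mark the match.
Abca1, first match: cgaggtcttccttTGCACTGtg
Abca1, second match: atggatctattttTGCACTGga
Soat1 held 2 matches to miR-181a-5p, at chr1:156428166-156428187 and chr1:156424895-156424916, and 1 to miR-146a-5p, at chr1:156428908-156428929, all on the minus strand.
Soat1, first match to miR-181a-5p: ttttgttgatggaTGAATGTat
Soat1, second match to miR-181a-5p: attggaggtacaaTGAATGTtc
Soat1, match to miR-146a-5p: attactttgtagcAGTTCTCca
Such matches are common in regions of this length. Of 2321 genes whose 3′ untranslated region was 0.8 to 1.25 times as long as that of Abca1 (3156 bases), 25.2% held a match to miR-148a-3p. Of 548 genes of similar length to Soat1 (6534 bases), 60.4% held a match to miR-181a-5p and 44.9% one to miR-146a-5p. A match is a string in the annotation and not a measured binding site.

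Library totals ranged from 19362343 to 37018917 counts. The transgene labels were checked with mouse Thy1, which lay between 18117 and 20734 normalized counts in WT control and between 36153 and 62866 in the 13 transgenic libraries. The CA1 markers Mpped1, Wfs1, Fibcd1 and Pou3f1 were detected in every group, with summed normalized counts of 20634 to 34627. Genes listed for CA3 (most abundant Chgb, Cpne4 and Bok) summed to 10888 to 16779. Those listed for the dentate gyrus (most abundant Prox1, C1ql2 and Dsp) summed to 851 to 3018. APP control 5 and APP control 6 stood apart: a list of 12 microglial genes known to rise around plaques (most abundant Ctsd, Axl and Tyrobp) summed to 17003 and 21640 normalized counts in them, against 35479 to 52179 in the other APP control libraries, 28060 to 50911 in treated mice and 10039 to 19173 in WT control. WT control 1 and WT control 5 were highest in this list among the wild-type libraries. Choroid plexus genes (most abundant Kl, Ttr and Prlr) were high in WT control 5 (sum 2732) and, to a lesser extent, APP anti-miR-mix 6 (1930), against 672 to 1049 in all others. The labels do not say whether animals shared a litter or a surgery day, and the p-values treat the libraries as independent.

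Levels were compared between genes in TPM, which scales counts by the exonic length of each gene and to a common total. Apoe was the most abundant member in WT control with 2983 ± 463 TPM (SD, n = 6), and Clu followed with 1308 ± 185 TPM. Apod had 417 ± 158 TPM, and Lrp1 ranged from 148 to 182 TPM. The ranges of these neighbours did not overlap in any of the 3 groups.

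Abcg1, Abca1, Abca7 and Soat1 formed a lower tier with 42.3 ± 2.49, 29.9 ± 3.93, 24.7 ± 3.44 and 19.2 ± 1.64 TPM in WT control. Within it, Abca1 overlapped with Abca7 and Abca7 with Soat1, so their order was not resolved by the spread between animals, and in both transgenic groups Abcg1 overlapped with Abca1 as well. Apoc1 was lowest with 3.96 ± 1.02 TPM, far below Apoe although the genes are neighbours on chromosome 7. The order of the group means was the same in the 3 groups. No member shares exonic positions with another annotated gene.

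**Figure D1:**
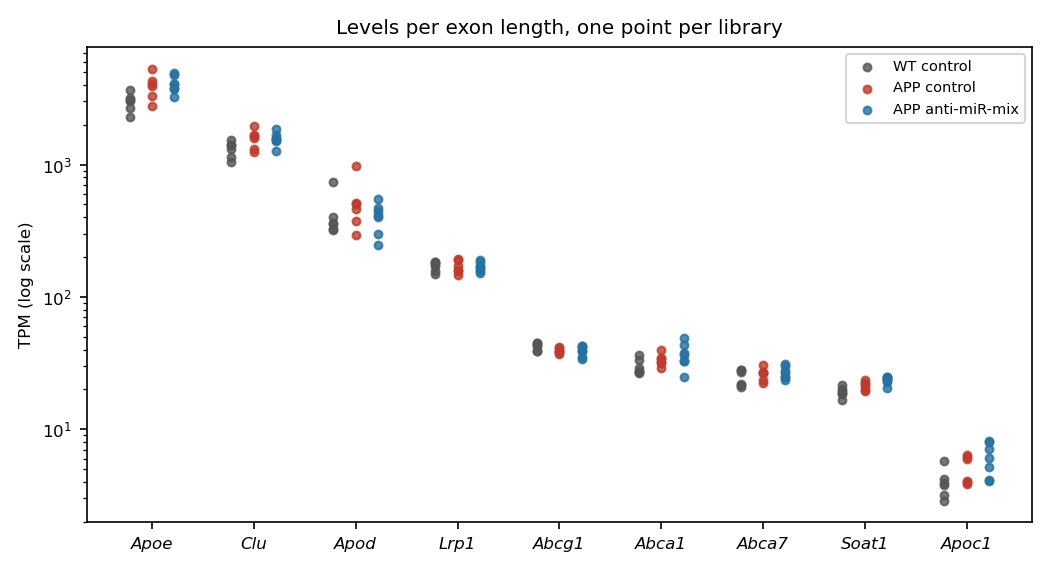
TPM (log axis) of the 9 members, ordered by their mean in WT control, with 1 point per library and a colour per group. Apoe, Clu, Apod and Lrp1 occupy separate ranges, the ranges of Abcg1, Abca1, Abca7 and Soat1 run into each other in the transgenic groups, and Apoc1 lies lowest.

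APP control set against WT control shows the transgenic mice without the inhibitors. In it, 1 member, Apoe, passed the threshold (DESeq2, Benjamini-Hochberg adjusted p under 0.05), and it was higher in APP control by a factor of 1.32. The other 8 did not pass it. Over all genes tested, 4.71% passed, 3.66% higher and 1.05% lower. The median log2 fold change of the 9 members was 0.16, beside -0.01 for all genes tested. Of the 9 estimates 8 were above 0, beside 8807 of 19297 over all genes. With edgeR no member passed (3.22% of all genes), and 3 of the 9 had an unadjusted DESeq2 p under 0.05 (Apoe, Clu and Soat1), beside 13.7% of all genes.

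Treated mice set against APP control show the inhibitors in APPPS1-21 mice. No member passed the threshold here with DESeq2 or edgeR, and neither did any other gene (0% of 19297). At an unadjusted p under 0.05, DESeq2 listed 552 genes (2.86%), among them 1 member, Soat1. The median log2 fold change of the members was 0.04.

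Treated mice were also set against WT control, which combines the transgenes and the inhibitors. There 2 members passed, Apoe and Soat1, both higher in treated mice, against 8.95% of all genes (5.59% higher and 3.36% lower). The same 2 genes passed with edgeR (6.06% of all genes). At an unadjusted DESeq2 p under 0.05 there were 6 members (Apoe, Clu, Apoc1, Abca1, Abcg1 and Soat1), beside 19.4% of all genes. The members' median log2 fold change was 0.26, beside -0.02 for all genes. For no member were the libraries of 2 groups fully apart in any comparison, which held for 1.57% of all genes in APP control (1.2% higher) and 3.42% in treated mice (2.52% higher), both against WT control, and for 0.0207%, all lower, in treated mice against APP control. The comparisons with WT control share its libraries, and those with APP control share these.

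**Figure D2:**
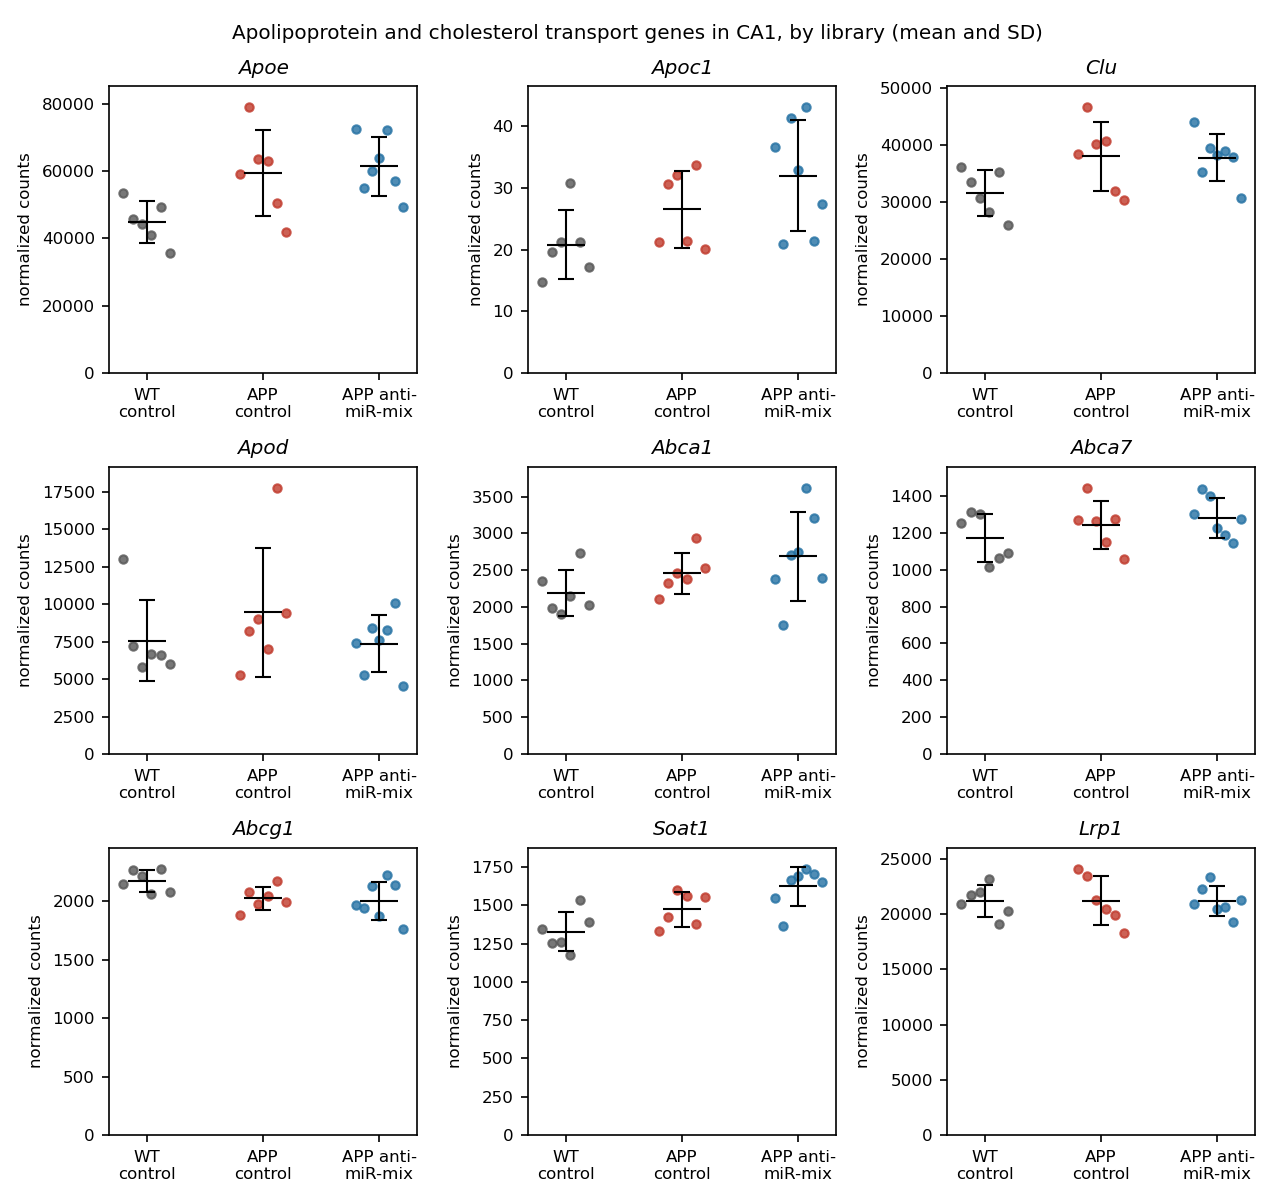
Normalized counts of the 9 members, with 1 panel per gene, 1 point per library, and a horizontal line and bars for the mean and SD of each group; each vertical axis starts at 0. Apoe is shifted upward in both transgenic groups and Soat1 most in treated mice, all with overlapping ranges. Lrp1 lies at the same height in all groups, and single high points stand out for Apod in WT control and APP control.

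**Figure D3:**
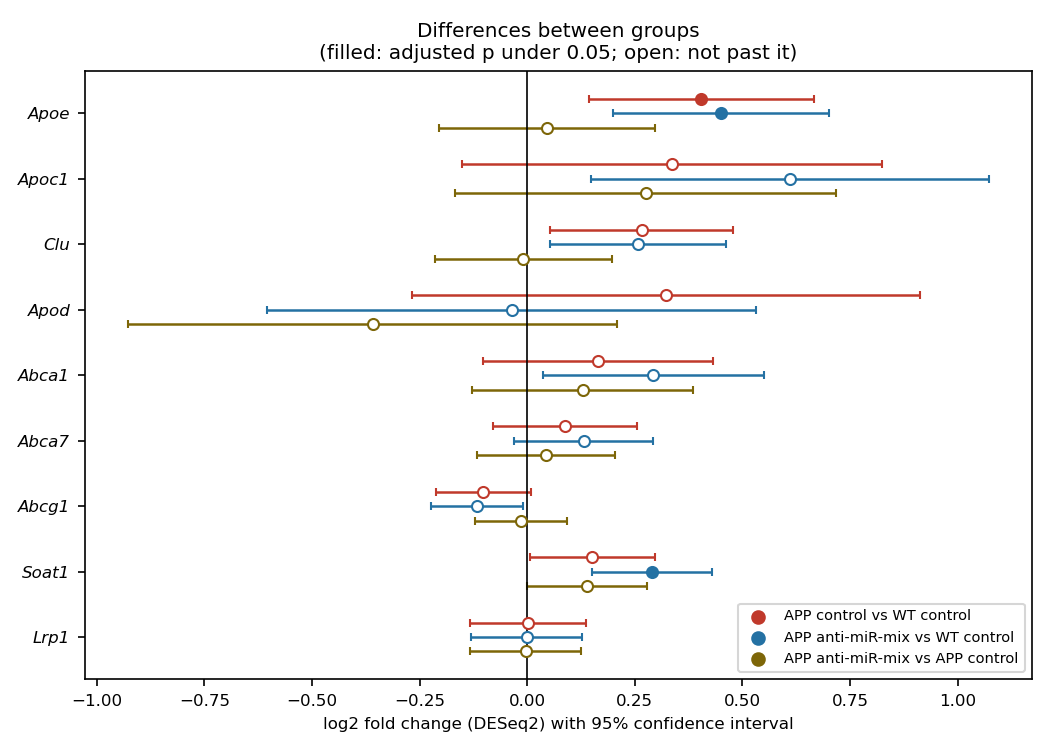
Log2 fold changes of the members in the 3 comparisons (DESeq2) with 95% confidence intervals; filled points have an adjusted p under 0.05. The 3 filled points are Apoe in APP control (0.40) and in treated mice (0.45), both against WT control, and Soat1 in treated mice against WT control (0.29).

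Apoe (ENSMUSG00000002985, chr7:19696109-19699188 in GRCm38, minus strand) encodes apolipoprotein E, the main lipid carrier of the brain. It ranged from 35569 to 53521 normalized counts in WT control (median 45037), from 41784 to 78909 in APP control (median 60916) and from 49192 to 72485 in treated mice (median 59927). The 4 APP control libraries other than APP control 5 and 6 lay above every WT control library, while these 2, at 50440 and 41784, fell within the wild-type range. APP control 5 and 6 were also the transgenic libraries with the lowest sum of plaque-response genes.

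Apoe rose in APP control against WT control by 0.40 on the log2 scale (SE 0.13, DESeq2 adjusted p = 0.0491). This call was marginal. The edgeR adjusted p was 0.109, a fit of those groups alone gave 0.0846, and the DESeq2 call was lost when any 1 of 12 of the 19 libraries was left out. Over all 19 such fits the log2 fold change was 0.31 to 0.49 and the adjusted p 0.00264 to 0.207. The 12 were WT control 2, 3, 4 and 6, APP control 1, 2, 3 and 4 and APP anti-miR-mix 2, 3, 4 and 6. The call was kept with TMM factors, with other filters on low counts and with limma on the deposited log2 table. Without APP control 5 and 6, the libraries of that group with the least Apoe, the difference was 0.56 (adjusted p = 0.000255). Leaving them out raises it, and the pair was chosen after seeing the data by a sum that varied with Apoe.

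Apoe was higher in treated mice than in WT control by 0.45, a factor of 1.37 (SE 0.13, DESeq2 adjusted p = 0.00873, edgeR adjusted p = 0.0343). This call was kept in all 19 fits that left out 1 library and in all 12 other settings. Between treated mice and APP control the difference was 0.05 with a 95% confidence interval of -0.21 to 0.30 (DESeq2 adjusted p = 1), and it changed sign to -0.11 without APP control 5 and 6. In bulk tissue, a change in the number of cells of a type and a change in RNA per cell cannot be told apart.

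Apoc1 (ENSMUSG00000040564, chr7:19689481-19692660, minus strand) encodes a small apolipoprotein that inhibits lipases and is expressed by macrophages and some glia. Its counts were low, from 14.7 to 30.9 normalized counts in WT control (median 20.5), 20.2 to 33.7 in APP control (median 26.1) and 21.0 to 43.1 in treated mice (median 32.9). All groups overlapped. Its largest difference, 0.61 between treated mice and WT control (SE 0.24), missed the threshold (DESeq2 adjusted p = 0.0820), with an interval of 0.15 to 1.07. It passed without WT control 4 (0.78, adjusted p = 0.0329) and without APP anti-miR-mix 2 (0.69, adjusted p = 0.0384). It was 0.51 without WT control 1 and 5 (adjusted p = 0.260) and 0.30 with limma on the deposited log2 table (adjusted p = 0.0525).

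Clu (ENSMUSG00000022037, chr14:65968483-65981547, plus strand) encodes clusterin, a secreted chaperone and lipid carrier also called apolipoprotein J, which is made largely by astrocytes. It lay between 25989 and 36243 normalized counts in WT control (median 32140), between 30384 and 46689 in APP control (median 39395) and between 30695 and 44137 in treated mice (median 38287). As for Apoe, APP control 5 and 6 were the lowest of their group (31933 and 30384) and the other 4 exceeded every WT control library.

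The differences of Clu from WT control were 0.27 in APP control (SE 0.11, DESeq2 adjusted p = 0.164) and 0.26 in treated mice (SE 0.10, adjusted p = 0.106). Neither passed, with intervals of 0.05 to 0.48 and 0.05 to 0.46. The first passed without APP control 6 (0.32, adjusted p = 0.0385), without both APP control 5 and 6 (0.39, adjusted p = 0.00381) and without both WT control 1 and 5 (0.36, adjusted p = 0.0362), which are the libraries with the lowest Clu of APP control and the highest of WT control, so that leaving them out raises the difference. The second passed without APP anti-miR-mix 7 (0.30, adjusted p = 0.0415), without WT control 1 and 5 (0.35, adjusted p = 0.0242), without APP control 5 and 6 (0.26, adjusted p = 0.0374) and with limma on the deposited log2 table (0.29, adjusted p = 0.0335). Between the transgenic groups Clu differed by -0.01 (interval -0.21 to 0.20).

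Apod (ENSMUSG00000022548, chr16:31296192-31314808, minus strand) encodes apolipoprotein D, a lipocalin that binds small lipids and is made by oligodendrocytes, astrocytes and cells of the vessel wall and meninges. It ranged from 5773 to 12970 normalized counts in WT control (median 6649), from 5257 to 17718 in APP control (median 8611) and from 4543 to 10041 in treated mice (median 7569). WT control 1 and APP control 5 held the 2 highest values, far above the rest of their groups, and the groups overlapped throughout. The differences were 0.32 (SE 0.30) for APP control and -0.04 (SE 0.29) for treated mice against WT control, and -0.36 between the transgenic groups, with DESeq2 adjusted p of 0.762, 0.972 and 1. Single libraries decided these values. The first was 0.04 without APP control 5, 0.55 without WT control 1 and -0.03 without APP control 5 and 6, and the last was -0.08 without APP control 5 and -0.003 without APP control 5 and 6. None passed in any of these settings.

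Abca1 (ENSMUSG00000015243, chr4:53030787-53159895, minus strand) encodes the transporter that loads cholesterol and phospholipid onto lipid-poor apolipoprotein E, and it is the member with seed matches to miR-148a-3p. It lay between 1900 and 2738 normalized counts in WT control (median 2088), between 2108 and 2939 in APP control (median 2423) and between 1753 and 3613 in treated mice (median 2708). The treated group held both the lowest and the highest of the 19 values, in APP anti-miR-mix 2 and APP anti-miR-mix 5. Its SD was 604, against 311 in WT control and 276 in APP control.

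Abca1 did not pass the threshold in any comparison. Against APP control, treated mice were higher by 0.13 (SE 0.13, interval -0.13 to 0.39, DESeq2 adjusted p = 1), a value that was 0.04 without APP anti-miR-mix 5, 0.08 without APP anti-miR-mix 6, 0.21 without APP anti-miR-mix 2 and 0.21 without APP control 5 and 6. Against WT control the difference was 0.29 (SE 0.13, adjusted p = 0.157) in treated mice and 0.16 (SE 0.14, adjusted p = 0.705) in APP control. The latter was 0.06 with the adjustment number (a whole number per library recovered from the deposited log2 table) as a factor, 0.08 without APP control 5 and 6, 0.11 without APP control 5 and 0.29 without WT control 1 and 5. The difference of 0.29 rose to 0.37 without APP anti-miR-mix 2 (adjusted p = 0.0147) and to 0.42 without WT control 1 and 5 (adjusted p = 0.0359), and it passed in both. APP anti-miR-mix 2 was the lowest treated library for Abca1 and WT control 1 and 5 were the highest of their group, so leaving them out raises the difference.

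Abca7 (ENSMUSG00000035722, chr10:79996494-80015572, plus strand) encodes a related transporter of phospholipids that also acts in phagocytosis. It ranged from 1012 to 1313 normalized counts in WT control, 1060 to 1442 in APP control and 1143 to 1441 in treated mice, with medians of 1171, 1268 and 1272. The groups overlapped over most of their range. Differences were 0.09 for APP control (interval -0.08 to 0.25) and 0.13 for treated mice (interval -0.03 to 0.29) against WT control and 0.04 between the transgenic groups, none past the threshold (DESeq2 adjusted p = 0.779, 0.395 and 1). The first was 0.04 without APP control 2 and 0.05 without WT control 4, and the last ranged from 0.0019 without APP control 6 to 0.09 without APP control 2, all without a call. With the adjustment number as a factor, the second was 0.15 and passed (DESeq2 adjusted p = 0.0497).

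Abcg1 (ENSMUSG00000024030, chr17:31057675-31117988, plus strand) encodes the transporter that passes cholesterol to particles already loaded with lipid. It was the one member whose estimates were below 0 in all 3 comparisons. It lay between 2059 and 2274 normalized counts in WT control (median 2184), 1887 and 2170 in APP control (median 2020) and 1765 and 2225 in treated mice (median 1969). The transgenic libraries reached lower, with wide overlap. The differences from WT control were -0.10 in APP control (SE 0.06, DESeq2 adjusted p = 0.419) and -0.12 in treated mice (SE 0.05, adjusted p = 0.182), and neither passed. Between the transgenic groups it was -0.02 (interval -0.12 to 0.09), a difference that turned slightly positive without APP control 5 and 6 (0.0060).

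Soat1 (ENSMUSG00000026600, chr1:156424525-156474331, minus strand) encodes sterol O-acyltransferase 1, which esterifies cholesterol for storage in lipid droplets, and it is the member with seed matches to miR-181a-5p and miR-146a-5p. It ranged from 1174 to 1538 normalized counts in WT control (median 1306), 1331 to 1604 in APP control (median 1490) and 1364 to 1736 in treated mice (median 1669). In the treated group 6 of 7 libraries exceeded the highest WT control library, WT control 5, and APP anti-miR-mix 2 did not. APP control lay between, and overlapped with both.

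Treated mice had more Soat1 than WT control by 0.29, a factor of 1.22 (SE 0.07, DESeq2 adjusted p = 0.00142, edgeR adjusted p = 0.00782). This call was kept in all 19 fits that left out 1 library (0.26 to 0.34) and in all 12 other settings. The difference between APP control and WT control was 0.15 (SE 0.07, interval 0.01 to 0.30, adjusted p = 0.314) and that between treated mice and APP control 0.14 (SE 0.07, unadjusted p = 0.0496, DESeq2 adjusted p = 1). Neither of these steps passed by itself.

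Lrp1 (ENSMUSG00000040249, chr10:127538161-127621148, minus strand) encodes a large endocytic receptor that takes up apolipoprotein E particles and binds many other ligands. It was level across the groups: 19105 to 23140 normalized counts in WT control (median 21313), 18257 to 24048 in APP control (median 20829) and 19287 to 23381 in treated mice (median 20903). The 3 differences were within 0.01 of 0 on the log2 scale, with 95% confidence intervals of -0.13 to 0.14 (APP control against WT control), -0.13 to 0.13 (treated mice against WT control) and -0.13 to 0.13 (treated mice against APP control). The differences of treated mice from both other groups turned positive with edgeR and with TMM factors, which moved the median of all genes by a similar amount.

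Marker genes of other cells moved with the groups as well, and their part in the differences of Apoe and Soat1 was not tested. Of 12 homeostatic microglia genes 10 rose in APP control against WT control and 11 in treated mice against WT control (DESeq2). Of the 12 plaque-response genes 9 and 10 rose in the same comparisons. Of 13 astrocyte genes 1 rose in each, with summed normalized counts of 191302 to 236623 in WT control, 210382 to 264768 in APP control and 207506 to 268769 in treated mice.

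Among the other lists, 1 and 6 of 11 meningeal and fibroblast genes and 2 and 3 of 9 endothelial genes rose in these comparisons, and 2 and 1 of 11 neuronal genes fell. No oligodendrocyte (12 genes), oligodendrocyte precursor (5 genes), CA1 (4 genes), CA3 (4 genes), dentate gyrus (4 genes), blood (5 genes) or choroid plexus gene (9 tested) passed the threshold. None of the lists' genes was at 0 in every library, and none of the lists holds a member. In treated mice against APP control no marker gene passed.

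To describe how the members varied among animals apart from the group differences, group means were subtracted from log2(normalized count + 1) and the remaining deviations were correlated over the 19 libraries. Apoe and Clu varied together most closely of the 36 pairs (Pearson r = 0.946, Spearman rho = 0.939, permutation p = 1e-05 for both, the smallest that 100000 permutations within groups can give, adjusted p = 0.00036). Without the 2 libraries farthest from the median the r was 0.926, and with the adjustment number also removed it was 0.923. An animal with more Apoe than its group thus also had more Clu. Both genes were read in the same libraries, each with its own depth and dissection. The correlation does not separate the 2 genes from other genes of the same cells.

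Abca1 deviated with Apod (r = 0.627, rho = 0.732, permutation p = 0.00271 and 0.00067, adjusted p = 0.0378 and 0.0121) and with Soat1 (r = 0.668, rho = 0.618, permutation p = 0.00315 and 0.0062, adjusted p = 0.0378 and 0.0558). Without the 2 farthest libraries r was 0.682 and 0.557, and with the adjustment number removed 0.653 and 0.553. Abca1 and Lrp1 deviated in opposite directions (r = -0.521, rho = -0.633, permutation p = 0.0130 and 0.00404, adjusted p = 0.0670 and 0.0485), with r = -0.538 without the 2 farthest libraries and -0.202 with the adjustment number removed. For Apoe and Abca1, carrier and transporter, r was 0.175 and rho 0.165 (permutation p = 0.458 and 0.512, adjusted p = 0.634 and 0.653), and r was 0.614 with the adjustment number removed.

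The deviations of Apoe and Clu also followed the summed plaque-response genes, with r = 0.860 and rho = 0.898 for Apoe (permutation p = 6e-05 and 3e-05, adjusted over 54 relations p = 0.00189 and 0.00162) and r = 0.851 and rho = 0.854 for Clu (permutation p = 7e-05 for both, adjusted p = 0.00189). Without the 2 farthest libraries, r was 0.877 for Apoe and 0.814 for Clu, and with the adjustment number removed it was 0.790 and 0.858. Against the summed astrocyte genes, r was 0.611 and rho 0.735 for Apoe (adjusted permutation p = 0.0593 and 0.0118) and r was 0.684 and rho 0.775 for Clu (adjusted permutation p = 0.0279 and 0.00738), and with the adjustment number removed as well it was 0.748 and 0.887. For Soat1 and the astrocyte genes r was 0.650 and rho 0.504 (permutation p = 0.00633 and 0.0395, adjusted p = 0.0427 and 0.178), with r = 0.377 without the 2 farthest libraries and 0.742 with the adjustment number removed. Clu deviated with the oligodendrocyte genes (r = 0.647, rho = 0.611, permutation p = 0.00456 and 0.00864, adjusted p = 0.0352 and 0.0518), with r = 0.475 without the 2 farthest libraries and 0.725 with the adjustment number removed. Against the homeostatic microglia genes r was 0.723 for Apoe and 0.743 for Clu (adjusted permutation p = 0.0279 and 0.0250). For Soat1 and Abca1 against the plaque-response genes r was 0.237 and 0.116 (permutation p = 0.336 and 0.608, adjusted p = 0.698 and 0.779), and with the adjustment number removed 0.658 and 0.364, so the value for Soat1 depended on that number. Abca1 deviated with the endothelial genes (r = 0.683, rho = 0.656, permutation p = 0.00229 and 0.00384, adjusted p = 0.0279 and 0.0296), with r = 0.495 without the 2 farthest libraries and 0.455 with the adjustment number removed.

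**Figure D4:**
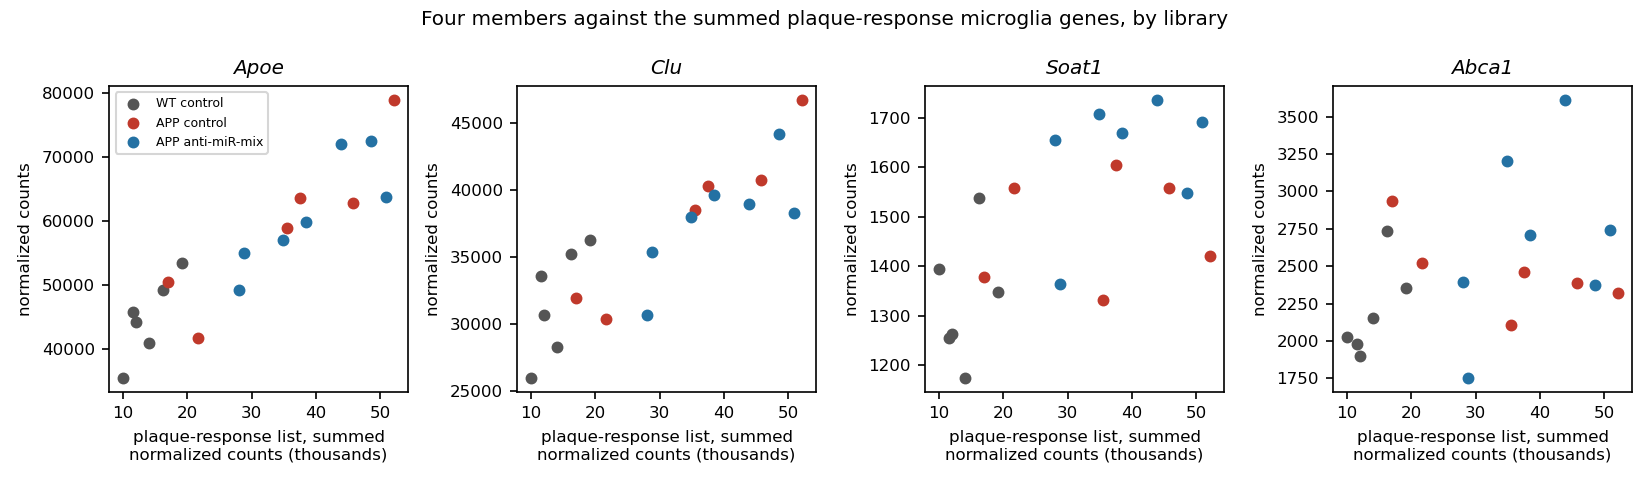
Normalized counts of Apoe, Clu, Soat1 and Abca1 against the summed normalized counts of 12 plaque-response microglia genes, with 1 point per library and a colour per group. Apoe and Clu climb with the sum within each group, and the APP control points farthest to the left are APP control 5 and 6, while Soat1 and Abca1 scatter.

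The 2 genes whose deviations were most like those of each member were found among 14090 genes (14091 for Apoc1) with a mean of at least 50 normalized counts, over the same 19 libraries, as a description without a test. Clu was the gene most like Apoe, followed by Plxnb2 (r = 0.921), and Abhd4 (r = 0.973) and Necap2 (r = 0.958) were most like Clu. For Apod they were Ezr (r = 0.896) and Ccl2 (r = 0.865). Apoc1 had no close companion, with Med8 at r = 0.739 and Ict1os at 0.694.

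Among the transporters, Mcl1 (r = 0.902) and Resf1 (r = 0.854) were closest to Abca1, Evi5l (r = 0.956) and Cant1 (r = 0.921) to Abca7, and Gm21984 (r = 0.804) and Emilin2 (r = 0.792) to Abcg1. Rbpj (r = 0.895) and Tcf7l2 (r = 0.891) were closest to Soat1, and Mier2 (r = 0.941) and Ptprs (r = 0.935) to Lrp1. No member other than Clu was among the genes most like another member.

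The members were set beside 84 further genes of lipid transport in 5 lists, of which 75 passed the filter on low counts. Between APP control and WT control 10 of the 75 (13.3%) passed, 9 of them higher in APP control and 1 lower, beside 4.71% of all genes. Between treated mice and WT control 17 (22.7%) passed, 13 of them higher and 4 lower, beside 8.95% of all genes. None passed between the transgenic groups, where 1 had an unadjusted p under 0.05. The median log2 fold changes of the 75 genes were 0.02, 0.02 and 0.01. With edgeR, 7 and 15 of the 75 passed: Lpl, Sort1 and Srebf1 did not pass in APP control (adjusted p = 0.0681, 0.115 and 0.0765), nor Lcat and Stab1 in treated mice (0.0782 and 0.0738).

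Of 22 lipoprotein receptors and their regulators, 3 rose and 1 fell in APP control. Trem2, a microglial receptor that binds lipids and apolipoproteins, rose by 2.18 (SE 0.31, DESeq2 adjusted p = 1.26e-09), against 0.40 for its ligand Apoe. Lrp5, a Wnt co-receptor, rose by 0.51 (SE 0.11, adjusted p = 0.000107), while Lrp1, of the same receptor family, differed by 0.00 (interval -0.13 to 0.14). Sort1, the sorting receptor sortilin, fell by 0.19 (SE 0.06, adjusted p = 0.0346). This call was lost with TMM factors, with limma, in 2-group fits and without APP control 5 and 6. It was also lost without any 1 of WT control 2, 4 and 6 and APP control 2, 3, 5 and 6.

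Of these receptors 4 rose and 3 fell in treated mice against WT control. Trem2 was higher by 2.23 and Lrp5 by 0.47 (DESeq2 adjusted p = 4.9e-11 and 0.000174), and Stab1, a scavenger receptor, also rose. The Stab1 call was lost with the adjustment number as a factor and without WT control 1 and 5. It was also lost without any 1 of WT control 1, 2, 3 and 6, APP control 2 and APP anti-miR-mix 1, 2, 3, 4, 6 and 7. Sorl1, a sorting receptor for APP that also binds apolipoprotein E, was lower by 0.38 (adjusted p = 0.000167), Sort1 by 0.26 (adjusted p = 0.000181) and Lrp1b by 0.35 (adjusted p = 0.00311). Sort1, Sorl1 and Stab1 overlap with genes on the opposite strand and Lrp1b with a small RNA gene, and the strand setting of the counting is not given in the sources used here.

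Of 19 genes of intracellular cholesterol handling, 3 rose in APP control and none fell. Ch25h, cholesterol 25-hydroxylase, rose by 1.91 (SE 0.31, DESeq2 adjusted p = 2.17e-07), Npc2, which carries cholesterol out of the lysosome, by 0.76 (SE 0.15, adjusted p = 6.54e-05) and Stard4, a sterol carrier, by 0.51 (SE 0.13, adjusted p = 0.00291). Against WT control 5 rose and 1 fell in treated mice. Ch25h was higher by 2.16, Npc2 by 0.84 and Stard4 by 0.60 (adjusted p = 2.01e-10, 1.23e-06 and 7.11e-05), Plin2 of the lipid droplet coat and Lipa, the lysosomal lipase, also rose, and Gramd1b, which moves cholesterol from the plasma membrane, fell by 0.20 (adjusted p = 0.00207). For the member Soat1 the corresponding difference was 0.29. Ch25h and Gramd1b also share exonic positions with genes on the opposite strand.

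Of 10 tested apolipoproteins and plasma lipid factors 1 rose in APP control: Lpl, lipoprotein lipase, by 0.76 (SE 0.22, DESeq2 adjusted p = 0.0170). This call was lost with the adjustment number as a factor and with limma. It was also lost without any 1 of WT control 2 and 3 and APP control 1, 3 and 4. Lpl was also higher in treated mice than in WT control, by 0.93 (adjusted p = 0.000483) and Lcat, which esterifies cholesterol on particles, by 0.31 (adjusted p = 0.0467). The Lcat call was lost with the adjustment number as a factor. It was also lost without any 1 of WT control 4 and 6, APP control 1 and 4 and APP anti-miR-mix 1, 2, 3, 4, 6 and 7. Apoa4, Apoa5, Apob, Apoc2, Apoc4 and Apom did not pass the filter on low counts, with at most 58 counts over all libraries.

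Of 10 other ABC lipid transporters, Abca9 rose by 0.83 in APP control (SE 0.12, DESeq2 adjusted p = 5.14e-10) and by 0.90 in treated mice (SE 0.11, adjusted p = 7.8e-13), both against WT control, and Abca4, a retinoid lipid transporter, by 0.55 in treated mice (adjusted p = 0.0154). The transporters among the members did not pass in these comparisons. Of 14 sterol-responsive transcription factors and their regulators, Srebf1, a regulator of lipid synthesis that overlaps with a gene on the opposite strand, rose by 0.24 in APP control (SE 0.08, adjusted p = 0.0315), and none passed in treated mice against WT control, where Srebf1 was 0.21 (SE 0.07, adjusted p = 0.0531). Srebf1 passed there in other settings, 2-group fits and limma among them, and its difference between the transgenic groups was -0.04 (interval -0.18 to 0.10). The Srebf1 call in APP control was lost in 2-group fits and without WT control 5 and APP anti-miR-mix 6. It was also lost without any 1 of WT control 4, 5 and 6 and APP control 2, 3, 4 and 5.

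**Figure D5:**
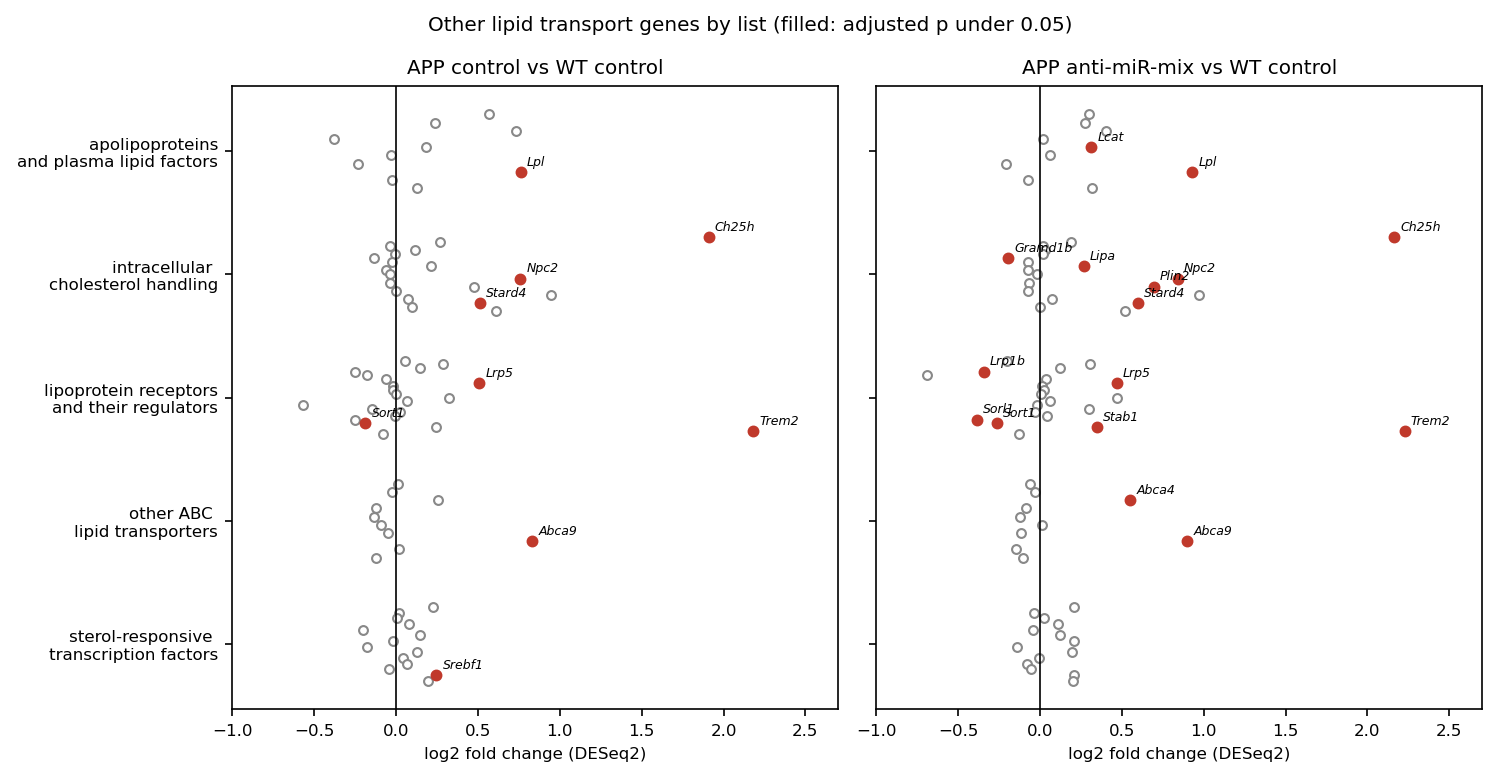
Log2 fold changes (DESeq2) of further lipid transport genes in 5 lists against WT control, with 1 receptor gene not shown, for APP control (left) and treated mice (right); filled, named points have an adjusted p under 0.05. Trem2 and Ch25h lie farthest to the right in both panels, at 2.18 and 1.91 in APP control and at 2.23 and 2.16 in treated mice.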

How the data were processed

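RNA-seq of CA1 tissue (polyA libraries, single-end reads of 50 nt) was analysed from the deposited files. The authors made the deposited raw counts per gene with STAR (2.5.2b) on mm10 and featureCounts of Subread (1.5.1), per the labels and the submitters' processing notes; the annotation release and strand setting are not given in the sources used here. The authors also deposited a table of log2 normalized values (18825 genes). It differs from log2 CPM by a whole number per library, from 1 to 5, times a slope per gene. That number, of unstated meaning, is called the adjustment number and was used as a factor in alternatives. Total counts per library ranged from 19362343 to 37018917, which set the counting error. Same-group libraries had a chi-square of at least 4.62 per gene between them, so none was counted as a duplicate.

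GENCODE M21 gave symbols to 48349 of 48709 genes. Genes reaching 5 counts in 50% of libraries or more were tested with DESeq2 (1.42.0; Wald test, all 3 groups in 1 fit, unshrunken fold changes, Benjamini-Hochberg adjustment over all genes, threshold 0.05). Normalized counts are counts divided by DESeq2 size factors. Alternatives used edgeR (4.0.16), TMM factors, other filters, fits of 2 groups, the replicate number as a block, the adjustment number, limma (3.58.1) on the log2 table, and left-out libraries. R (4.3.3) and Python were used, and the tests were first tried on simulated data.

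The members, lists, markers and tests were chosen with earlier results of these data known. Further genes were named by a rule: in each list, comparison and direction, up to 3 genes with the smallest adjusted p among those past 0.05 (Stab1, Plin2 and Lipa are named as the remaining members of short counts), and the 2 genes most correlated with each member. The values of 1 receptor gene that enters the counts are not reported here.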

Additional observations from a re-analysis of the deposited data

Results flagged for a closer look

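Within the groups of 6 or 7 libraries, 81 sets of values (the members and 18 named lipid transport genes in each group) were searched for a single library far from the rest (Dixon's criterion at 95%). The search found 3, and chance alone gives about 1 in 20, or 4.05.

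Apod was high in WT control 1, at 12970 normalized counts, while the rest of the group held 5773 to 7230. It was high again in APP control 5, at 17718 against 5257 to 9405 in the rest of that group. APP control 5 was also the highest of the 19 libraries in the summed blood genes (2715, against 642 to 1597 in the rest of its group) and endothelial genes (8181, against 5756 to 6942). Its meningeal and fibroblast genes summed to 8000, against 3054 to 8288 in the rest of its group, with APP control 3 the highest. In WT control 1 these sums were 963, 5572 and 2409. Their part in the Apod values was not tested. WT control 1 and APP control 5 take opposite places in the plaque-response sums of their groups, highest (19173) and lowest (17003).

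Lrp5 was low in APP control 6, at 278 normalized counts against 390 to 453 in the other APP control libraries. APP control 6 was also the library of its group with the lowest Apoe and Clu.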

How the results depend on the processing

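The calls of Apoe and Soat1 in treated mice against WT control held in every setting tried, and no member passed between the transgenic groups in any. The Apoe call in APP control against WT control held in some settings and was lost in others. The cause was not tested. Leaving out APP control 5 and 6 together was chosen after seeing the data. WT control 1 and 5, and WT control 5 with APP anti-miR-mix 6, were left out for their plaque-response and choroid plexus sums, known from earlier results of these data. Apoc1 has no value under the filter of 50 counts.

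In APP control against WT control the number of members called was 0 with edgeR, with fits of 2 groups, with the adjustment number in edgeR and without WT control 5 and APP anti-miR-mix 6, and it was 2 (Apoe and Clu) without WT control 1 and 5 or without APP control 5 and 6; single libraries left out gave 0 to 2. Genes called ranged from 600 (adjustment number in edgeR) to 1326 in the other settings, the replicate block included, against 908. With single libraries left out they were 666 to 1209. Pathway genes called were 18 without APP control 5 and 6, against 10. In treated mice against APP control, genes called were 3 in fits of 2 groups, 1 without WT control 1 and 5, 14 without APP control 5 and 6 and 0 to 3 with single libraries left out. In treated mice against WT control, members called were 4 without WT control 1 and 5 (Clu and Abca1 added) and 2 to 4 with single libraries left out. Genes called there ranged from 1152 to 2202 in the other settings, the replicate block included, against 1727. With single libraries left out they were 1169 to 2012.

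Deviations of same-numbered libraries correlated by r from -0.12 to 0.35, over 0.1 in 10 of 18 pairs (all pairs only for numbers 2 and 4), and 2 of 18 libraries correlated best with their own number in both other groups, so the libraries share only a number and were not treated as pairs. With the replicate number as a block, members called were 2 in APP control (Apoe, and Clu with 0.26, DESeq2 adjusted p = 0.0398) and 4 in treated mice (Apoe, Soat1, Clu with 0.31, adjusted p = 0.00679, and Abca1 with 0.30, adjusted p = 0.0215) against WT control, and 1 gene passed between the transgenic groups.

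No difference that was called changed sign. Without APP control 5 and 6, Apod moved from 0.32 to -0.034 in APP control against WT control, and Apoe became -0.11 and Abcg1 0.0060 between the transgenic groups. Under the block, Lrp1 became -0.00165 in APP control against WT control, Clu 0.045 and Abcg1 0.013 between the transgenic groups, and Apod 0.048 in treated mice against WT control. That Apod value was 0.019 with limma and 0.20 without WT control 1 and 5. Lrp1 in APP control against WT control became -0.038 without WT control 1 and 5 and -0.027 without WT control 5 and APP anti-miR-mix 6. Between the transgenic groups Lrp1 became 0.00162 with edgeR, 0.00165 with TMM factors and 0.019 without WT control 5 and APP anti-miR-mix 6. In treated mice against WT control it became 0.0103 with edgeR and with TMM factors (the median of all genes moved from -0.0152 to -0.00369 and -0.00355), 0.0043 with the filter of 50 counts, 0.0092 and 0.025 with the adjustment number in DESeq2 and edgeR, and 0.030 with limma. With single libraries left out, Lrp1 lay within -0.037 to 0.042 for APP control and -0.029 to 0.026 for treated mice against WT control, and within -0.043 to 0.035 between the transgenic groups. In the same fits, Apoe lay within -0.037 to 0.14, Clu within -0.066 to 0.057 and Abcg1 within -0.042 to 0.014 between the transgenic groups, and Apod within -0.13 to 0.19 in treated mice against WT control.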
